A study of Mus musculus with 24 samples.

Results

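Fat pads with much and with little leptin mRNA were compared within a mouse series on vitamin B3. The 24 arrays were ranked by the loess-normalised log2 ratio of the probe for Lep, the leptin gene, in each mouse's RNA over a common reference pool. The 8 arrays with the highest ratio and the 8 with the lowest, 16 of 24 in all, formed the high Lep and low Lep classes, and the 8 arrays between them were left out of the main comparison. These classes were chosen by a measured value and are not groups of the study's design. Differences between them therefore describe which genes went with Lep from mouse to mouse, and the ratios of the other genes come from the same hybridisations as the Lep ratio.

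All mice were C57BL/6JRcc males aged 28 or 29 weeks whose epididymal white adipose tissue, an abdominal fat depot, was taken. Every mouse ate a semi-synthetic diet with 40% of its energy from fat and 0.115% tryptophan. For 18 weeks the diet of 12 mice held 30 mg/kg of nicotinamide riboside (NR), which is a vitamin B3 compound (Ctrl NR), and that of the other 12 held 0 mg/kg (No NR). Each mouse was given 0.8 g of diet in the evening and then 1.8 g for 4 hours at the start of the light phase before it was killed, so all pads came from refed mice. Each array set the Cy5-labelled RNA of 1 mouse against a Cy3-labelled pool of epididymal fat RNA that also held other diets and female mice. A log2 ratio of 0 is the level of that pool.

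Leptin is a hormone made mainly by fat cells. Larger and well-fed fat cells make more of it, and insulin, glucocorticoids and the transcription factor C/EBPα are known to raise its transcription. Leptin acts on the brain to limit food intake through the receptor encoded by Lepr, so its mRNA is widely read as a gauge of fat cell size and of the fed state.

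Lep lies on chromosome 6 and was measured by 1 probe, which was well above background and unsaturated on every one of the 24 arrays. Its ratio ran from 0.27 to 0.71 in the high class, with a median of 0.32, and from -0.99 to -0.12 in the low class, with a median of -0.50. From the top down, the high class held mice 104, 117, 110, 68, 78, 77, 115 and 98, of which 110, 78 and 98 had No NR. The low class ran from mouse 90 through 101, 108, 75, 84, 97 and 88 down to 64, of which 90 and 101 had No NR. The fitted difference between the classes was 0.86, a 1.81-fold difference, which the choice of arrays fixes and which was not tested. The last array inside the high class had a ratio of 0.27 and the first outside it 0.25, so that edge falls within a run of close values. The low class ended at -0.12 and the next array lay at 0.08.

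**Figure D1:**
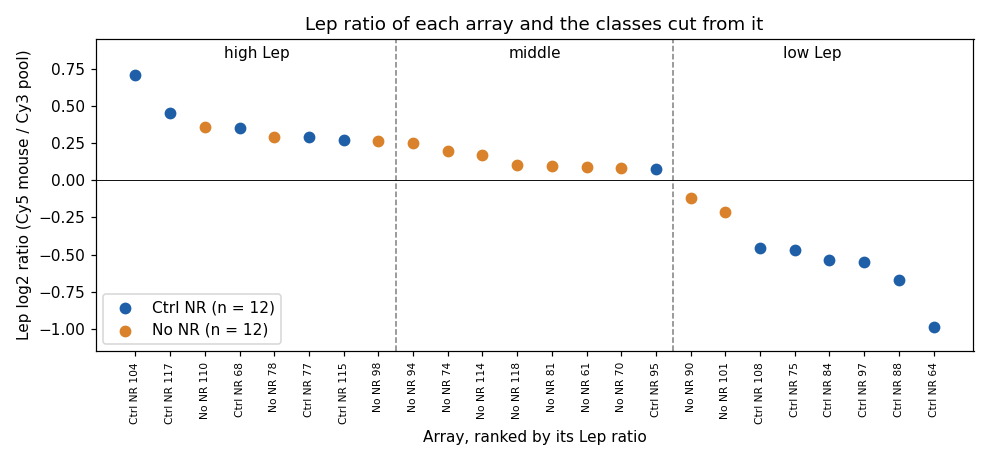
Each point is 1 array, with arrays ordered along the x axis by the Lep ratio on the y axis (log2, mouse over pool); colour gives the diet and dashed lines the edges of the classes. Ctrl NR mice sit at both ends, at 0.71 and at -0.99, and 7 of the 8 middle arrays are No NR.

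The diets were not spread evenly over these ranks. The high class held 5 Ctrl NR and 3 No NR mice, the low class 6 and 2, and the middle 1 and 7. The Lep ratio averaged -0.13 ± 0.54 (SD, n = 12) in Ctrl NR and 0.13 ± 0.17 (SD, n = 12) in No NR mice, so most of the range of Lep lay within the Ctrl NR diet. The ranks also depended on how the dyes were balanced. With Lep taken from the authors' deposited value table, 7 of the 8 high and 8 of the 8 low arrays were chosen again, and with the scanner's processed signals 6 and 8 were. With ratios only centred on each array's median, which leaves the dye bias that depends on brightness in place, 5 and 4 were, and Ctrl NR mouse 115 moved from rank 7 to rank 18.

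Promoter sequence was searched for short motifs in Lep and in genes called between the classes. The 250 bases before the start of Lep are printed with those of Orm2 and Pnp, since these were the genes called higher in the high Lep class whose 250 bases hold the same TTGCGCAA, the palindrome that C/EBP factors bind. Sequences are those of RefSeq on the GRCm38.p6 build, 5′ to 3′ on the gene's strand, at chr6:29059971-29060220 for Lep, chr4:63362199-63362448 for Orm2 and chr14:50944053-50944302 for Pnp, all on the plus strand. Capitals mark matches to TTGCGCAA, to the GC box GGGCGG, to TATAAA or to CCAAT, on either strand.
Lep: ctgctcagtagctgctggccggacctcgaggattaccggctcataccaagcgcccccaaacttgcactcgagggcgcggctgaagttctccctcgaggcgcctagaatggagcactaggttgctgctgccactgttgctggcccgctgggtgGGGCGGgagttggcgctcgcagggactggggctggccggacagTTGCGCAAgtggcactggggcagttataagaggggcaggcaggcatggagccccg
Orm2: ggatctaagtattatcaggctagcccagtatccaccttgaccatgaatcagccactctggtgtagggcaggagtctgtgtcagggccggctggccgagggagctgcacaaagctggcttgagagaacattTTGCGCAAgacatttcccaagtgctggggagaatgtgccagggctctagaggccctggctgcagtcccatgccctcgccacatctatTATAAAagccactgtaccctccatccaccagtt
Pnp: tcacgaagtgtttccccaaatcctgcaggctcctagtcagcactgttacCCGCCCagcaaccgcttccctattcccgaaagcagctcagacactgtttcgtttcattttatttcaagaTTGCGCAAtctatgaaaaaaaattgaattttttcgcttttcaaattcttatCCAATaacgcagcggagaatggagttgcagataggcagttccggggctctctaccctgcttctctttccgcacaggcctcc

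The first base of TTGCGCAA lay 55 bases before the start of Lep, 120 before that of Orm2 and 132 before that of Pnp. Of 27025 genes, each taken at its first listed start, 46 held these 8 letters, or 0.170%. Among the genes called between the classes that have a promoter in the table, 2 of 35 called higher and 0 of 9 called lower held them. Orm1, also called higher, had no promoter there and was not searched. GGGCGG stood before 19 of the 35 and 5 of the 9, against 32.9% of all genes, and CCAAT before 22 of the 35 and 3 of the 9, against 34.5%. TATAAA stood before 2 of the 35 and 0 of the 9, against 13.0% of all genes, and the E-box CACGTG before 0 and 2, against 6.05%. The shares over all genes include genes with no probe above background in this tissue, whereas every called gene had one. The sets are therefore unlike, and these shares do not show a trait of genes that go with Lep. None of these motifs contains another, and a match describes letters in this window, not a bound site.

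Between the classes, the genes that were higher where Lep was high included Orm1 and Orm2, the triglyceride synthesis genes Lpin1 and Dgat1, and the mitochondrial genes Cyc1 and Idh3b. No gene of the matrix, cell cycle or macrophage lists passed the test, and most of their members lay below 0. Of 21050 features tested (13013 named genes and 8037 unnamed probes, Lep left out), 56 were higher and 23 lower with high Lep at a limma adjusted p under 0.05, with diet as a covariate. These calls were 0.266% and 0.109% of the features tested. The split leaned further to higher calls under other scalings, with 67 higher and 8 lower from the scanner's processed signals, 35 and 4 from the value table and 16 and 0 from Cy5 values after Aquantile, while median centring gave 0 and 0 (limma, 530 and 101 at an unadjusted p under 0.05). At an unadjusted p under 0.05, 1726 features were higher and 1757 lower, or 8.2% and 8.35%. The adjusted p never fell under 0.0210, and the called differences ran from 0.31 to 1.01 on the log2 scale, so the largest was about the size of the Lep difference itself. In 43 of the 79 called features the 8 high and 8 low arrays did not overlap. Over all features, all high arrays lay above all low arrays in 50 (0.238%) and below them in 38 (0.181%).

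The number of calls rested on single mice. Without Ctrl NR mouse 104, 68, 77 or 84, or No NR mouse 101, 0 features were called in either direction by limma, although 1458 to 1762 per direction still had an unadjusted p under 0.05. Without Ctrl NR mouse 115 the counts were 135 higher and 79 lower, without Ctrl NR mouse 75 they were 115 and 85, and without Ctrl NR mouse 108 they were 83 and 48. They were 18 and 5 without No NR mouse 78, 13 and 3 without Ctrl NR mouse 88, 24 and 7 without Ctrl NR mouse 97, 45 and 12 without Ctrl NR mouse 117, and 43 and 12 without No NR mouse 98. None of the 38 called genes named here changed sign when any 1 array was left out. These genes were chosen on the same arrays for differences far from 0, so a change of sign was unlikely from the start.

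**Figure D2:**
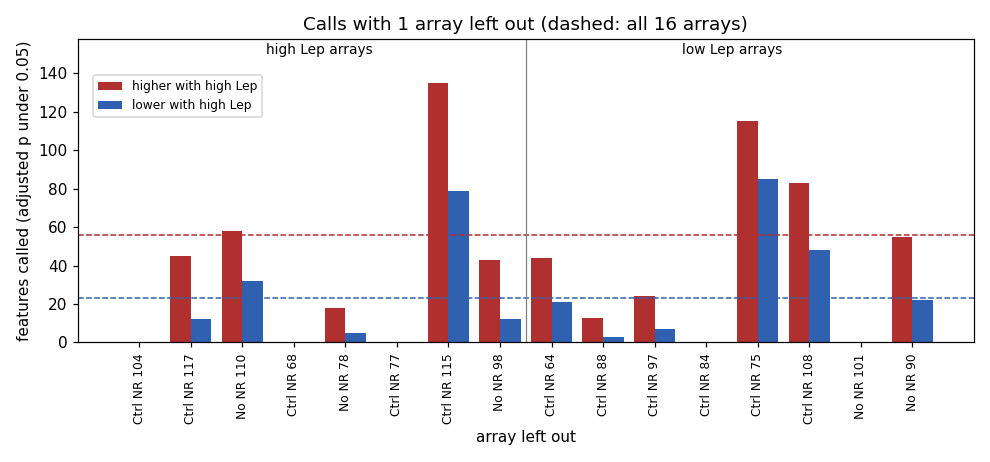
The y axis counts features called higher (red) and lower (blue) with high Lep, at a limma adjusted p under 0.05, after the array named on the x axis is left out; dashed lines are the 56 and 23 of all 16 arrays. The counts run from 0, in 5 of the 16 cases, to 135 and 85.

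Slide, macrophage content and 1 unnamed probe also varied over these arrays. The arrays lay on 5 slides, and slide 1 held 2 high, 1 middle and 0 low arrays. With slide as a fixed block 0 features were called (limma, 1985 higher and 1826 lower at an unadjusted p under 0.05), with slide as a random block 44 and 17 were. Without the slide 1 arrays 41 of the 56 and 14 of the 23 were called again. Probe A_55_P2138100, which has no gene name here and whose ratio falls into separate ranges over the series, was above 0 in 5 of the 8 low arrays and in 1 of the 8 high arrays, Ctrl NR mouse 115, all 6 of them Ctrl NR. Within Ctrl NR it was thus above 0 in 5 of the 6 low and 1 of the 5 high arrays. The remaining low one, mouse 64, was at -0.08, and the other high ones lay between -1.42 and -1.18. Lep class and this probe therefore nearly coincided within that diet. With the probe's ratio as a further term 1 feature was called higher and 0 lower, while 2022 and 2152 had an unadjusted p under 0.05. With the mean of 29 macrophage genes as a further term the counts were 199 and 155. The share of spots well above background overlapped, at 34.5% to 50.7% in the high and 39.2% to 46.2% in the low class. Slides 2 to 5 each held both classes, with 2 high against 2 low arrays, 1 against 1, 2 against 3 and 1 against 2. Within them the difference of Orm1 was 0.73, 1.03, 1.67 and 1.15, and that of Cyc1 0.32, 0.87, 0.93 and 0.86. These are differences of means without a diet term. Both genes were called on these same arrays, so the values are a description only. The part of the slides, of this probe and of macrophage content in the calls was not tested beyond these fits.

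**Figure D3:**
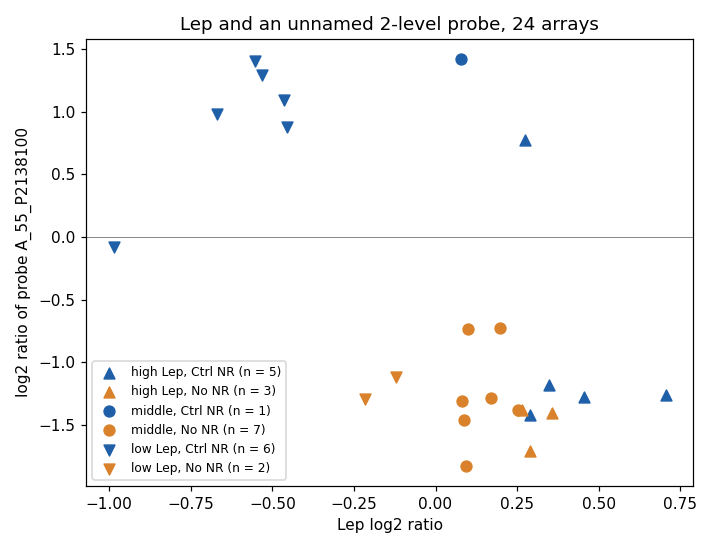
Each point is 1 of 24 arrays, with its Lep log2 ratio on the x axis and the log2 ratio of the unnamed probe A_55_P2138100 on the y axis; shape gives the Lep class and colour the diet. The 5 low Lep arrays with a probe ratio above 0 are all Ctrl NR, and 1 high Lep array, at 0.78, lies above 0 with them. So does 1 middle array, Ctrl NR mouse 95, at 1.42, while the low Lep array of Ctrl NR mouse 64 lies at -0.08.

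Both orosomucoid genes, which encode acute-phase plasma proteins also made by fat cells, rose with Lep, and Orm1 had the widest difference of the called features. Orm1 (chromosome 4) ran from -0.41 to 0.73 with a median of 0.37 in the high class, and from -1.36 to -0.16 with a median of -0.77 in the low class. All high arrays but Ctrl NR mouse 115 lay above every low array. The difference was 1.01 (SE 0.15, 2.02-fold, limma adjusted p = 0.0210). Orm2, its neighbour and near-copy, ran from 0.01 to 0.34 (median 0.15) in the high and from -1.25 to -0.03 (median -0.85) in the low class, without overlap. It differed by 0.86 (SE 0.14, limma adjusted p = 0.0210). Since the coding sequences are so alike, a probe of either gene may read both, and they are not independent results.

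Lpin1, Dgat1 and Chpt1, whose products act in the making of triglyceride or phospholipid, were higher with Lep. Lpin1 encodes lipin 1, the phosphatase that turns phosphatidate into diacylglycerol. Its ratio was -0.02 to 0.62 (median 0.45) in the high class and -1.62 to -0.20 (median -0.46) in the low class, where Ctrl NR mouse 64 was far below the others. The classes did not overlap, and the difference was 0.92 (SE 0.17, 1.89-fold, limma adjusted p = 0.0317). Dgat1, which adds the last fatty acid of triglyceride, was 0.57 higher (SE 0.12, limma adjusted p = 0.0481), with Ctrl NR mouse 104, the array with the most Lep, lowest of the high class at -0.32. Chpt1, which joins choline to diacylglycerol to make phosphatidylcholine, was 0.81 higher (SE 0.15, limma adjusted p = 0.0312), although a further probe of the gene gave 0.23 at an unadjusted p of 0.206.

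Against 0.266% of all features called higher, Lpin1 and Dgat1 were the 2 called among 15 measured triglyceride synthesis genes. Of these 13 lay above 0, and the median difference was 0.27, against -0.0039 over all features. All 19 measured genes of de novo lipogenesis lay above 0, with a median of 0.42. At an unadjusted p under 0.05, 7 of them (36.8%) were higher, against 8.2% of all features. Scd1, the desaturase that makes oleate, was at 0.72 (95% interval 0.23 to 1.20, limma adjusted p = 0.145) and Fasn, the fatty acid synthase, at 0.53 (0.06 to 1.00, limma adjusted p = 0.251). Neither passed, and in both the classes overlapped: Ctrl NR mouse 75, in the low class, reached 0.46 for Scd1 and 0.33 for Fasn, while Ctrl NR mouse 117, in the high class, was at -0.20 and -0.69.

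Hsd11b1, whose enzyme regenerates active glucocorticoid inside fat cells, was 0.72 higher (SE 0.14, 1.65-fold, limma adjusted p = 0.0338). Its ratio was 0.11 to 1.13 (median 0.29) in the high and -0.76 to 0.02 (median -0.26) in the low class, with no overlap. Of the 16 measured genes of the glucocorticoid response list it was the 1 called, against 0.266% of all features called higher. The list's median was -0.02. The clock gene Per1, which glucocorticoids induce, was at 0.30 (limma adjusted p = 0.226).

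The lists of mitochondrial metabolism held 5 calls, all higher, against 0.266% of all features called higher. They were 2 of 56 oxidative phosphorylation genes and 2 of 35 genes of the TCA cycle and branched-chain amino acid breakdown. The remaining call was 1 of 21 fatty acid oxidation genes. Cyc1, cytochrome c1 of respiratory complex III, ran from -0.16 to 0.46 (median 0.09) in the high class and from -0.75 to -0.38 (median -0.44) in the low class. Every high array lay above every low array, and the difference was 0.62 (SE 0.10, 1.54-fold, limma adjusted p = 0.0210). Idh3b, a subunit of the NAD-dependent isocitrate dehydrogenase of the TCA cycle, also separated the classes, at 0.06 to 0.49 against -1.04 to -0.05, with a difference of 0.68 (SE 0.11, limma adjusted p = 0.0210). Pcca, which carboxylates propionyl-CoA from branched-chain amino acids, was 0.61 higher (SE 0.12, limma adjusted p = 0.0335). Cox6b1, a subunit of complex IV, was 0.37 higher (SE 0.07, limma adjusted p = 0.0310), and Slc25a20, which carries acylcarnitines into the matrix, 0.48 higher (SE 0.10, limma adjusted p = 0.0481).

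Further called genes with mitochondrial products were picked out after their values were seen and show nothing about mitochondrial genes at large. They were Immt, which shapes the cristae, at 0.52, the iron-sulphur cluster assembly genes Isca1 and Isca2 at 0.58 and 0.57 (a further probe of Isca1 gave 0.15 at an unadjusted p of 0.283), and Immp2l, an inner membrane peptidase, at 0.49. Ppif, the cyclophilin of the permeability pore, was at 0.41, the prohibitin gene Phb2 at 0.35 and Supv3l1, an RNA helicase of the matrix, at 0.45, with limma adjusted p-values from 0.0210 to 0.0470. Mtor, the growth kinase, was 0.49 higher (limma adjusted p = 0.0338).

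Of the lists, that of the TCA cycle and branched-chain amino acid genes had the highest share of members higher at an unadjusted p under 0.05, while de novo lipogenesis had the highest median. Of 35 measured members, 32 lay above 0 and 17, or 48.6%, were higher at an unadjusted p under 0.05, against 8.2% of all features. The median was 0.21, and the calls were Idh3b and Pcca. Suclg1, a succinyl-CoA ligase subunit named after its value was seen, was at 0.44 (limma adjusted p = 0.0628). Of 56 oxidative phosphorylation genes 52 lay above 0, with a median of 0.13 and 14 at an unadjusted p under 0.05, all higher. Of 21 fatty acid oxidation genes 16 lay above 0, with a median of 0.14, and Acadm, the medium-chain dehydrogenase, was at 0.32 (limma adjusted p = 0.127). Each of these 3 lists, triglyceride synthesis and lipogenesis had a median above 0 under the other normalisations, and below 0 only when the arrays were ranked by median-centred Lep or, for fatty acid oxidation, also with the macrophage mean and the unnamed probe as joint terms. By contrast, 8 of 16 brown and beige fat genes lay above 0 and none had an unadjusted p under 0.05. Ucp1, the uncoupling protein of brown fat, was at -0.01, with a sign that turned under 5 other normalisations.

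**Figure D4:**
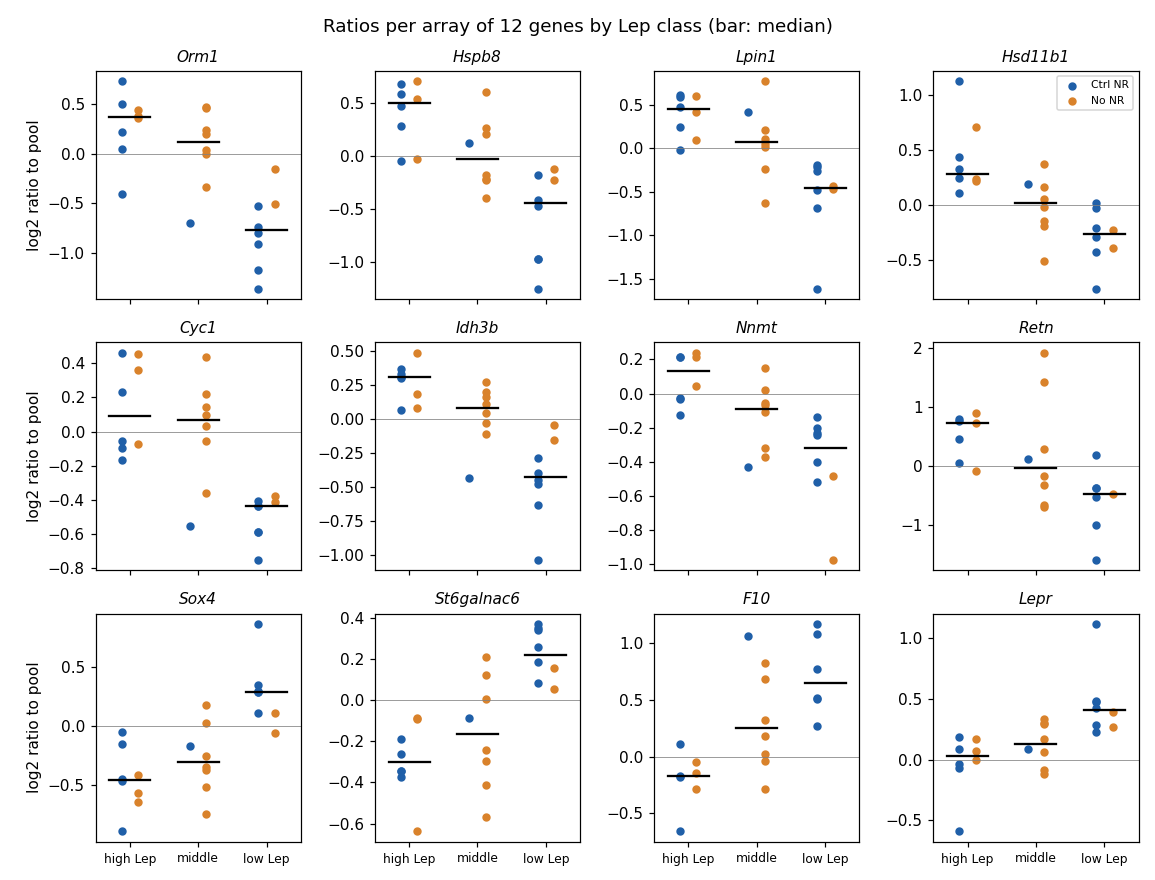
Each panel plots 1 gene's log2 ratio per array (y axis) by Lep class (x axis), with diet as colour and a bar at the class median. The 8 genes of the upper rows have higher medians in the high class and the 4 of the lowest row higher medians in the low class; Retn and Lepr did not pass the test.

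Genes that handle nicotinamide were among the calls in a study of vitamin B3. Nnmt, which methylates nicotinamide and so removes it from NAD salvage, ran from -0.12 to 0.24 (median 0.13) in the high and from -0.97 to -0.14 (median -0.32) in the low class. The classes did not overlap, No NR mouse 101 was far below the rest of the low class, and the difference was 0.51 (SE 0.11, limma adjusted p = 0.0481). Pnp, a purine nucleoside phosphorylase that can also cleave NR to nicotinamide, was 0.47 higher (SE 0.09, limma adjusted p = 0.0377), with 7 of the 8 high arrays above every low array. Nampt, the salvage enzyme that uses nicotinamide and that was named after its value was seen, was at 0.38 (limma adjusted p = 0.123). Of 25 measured genes of NAD synthesis, salvage and use, 2 were called higher, Nnmt and Pnp, against 0.266% of all features. At an unadjusted p under 0.05, 6 (24%) were higher and 0 lower, against 8.2% and 8.35% of all features. Of the 25, 14 lay above 0, with a median of 0.08. That median stayed above 0 in all 26 other settings it was computed under.

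Several leading genes belonged to none of these groups. Hspb8, a small heat shock protein that acts in chaperone-assisted autophagy, was 0.95 higher (SE 0.16, 1.93-fold, limma adjusted p = 0.0238), at -0.05 to 0.71 against -1.25 to -0.13. The nucleolar GTPase gene Gnl3 was 0.63 higher (SE 0.10, limma adjusted p = 0.0210), also without overlap. Prr32, a gene on the X chromosome, was 0.76 higher (limma adjusted p = 0.0210). Amy2a5, a pancreatic-type amylase gene, was 0.82 higher (limma adjusted p = 0.0431), and a further probe gave 0.30 (unadjusted p = 0.0725). It belongs to a family of near-identical copies that its probe may not tell apart.

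Fewer named genes were lower with high Lep, 12 in all against 44 higher. F10, coagulation factor X, fell most. It was at -0.66 to 0.11 (median -0.17) in 7 high arrays and at 0.27 to 1.17 (median 0.64) in 6 low arrays, the other spots having been dropped as outliers, and the low arrays left were all Ctrl NR. The classes did not overlap and the difference was -0.95 (SE 0.18, limma adjusted p = 0.0379). A further probe of F10 gave -0.63 (unadjusted p = 0.0130).

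Sox4, a developmental transcription factor, ran from -0.89 to -0.05 (median -0.46) in the high and from -0.06 to 0.86 (median 0.29) in the low class, where Ctrl NR mouse 88 was highest. It differed by -0.71 (SE 0.12, limma adjusted p = 0.0218), while a further, dimmer probe of Sox4 gave -0.04 (unadjusted p = 0.684), so this call rests on 1 of 2 probes. The repressors Erf, an ETS factor, and Mnt, a partner of MAX, differed by -0.51 (SE 0.10, limma adjusted p = 0.0414) and -0.43 (SE 0.08, limma adjusted p = 0.0338). Rcor1, the scaffold of the CoREST complex, differed by -0.31 and the chromatin protein gene Samd1 by -0.39, both at a limma adjusted p of 0.0481, and a further probe of Rcor1 gave -0.20 (unadjusted p = 0.0739). Tcof1, which serves the transcription of ribosomal RNA genes, differed by -0.58 (limma adjusted p = 0.0335), and its 2 probes moved alike. In Mnt, Rcor1, Samd1 and Tcof1 the classes did not overlap.

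The sialyltransferase genes St6galnac6 and St8sia4 differed by -0.51 (SE 0.09, limma adjusted p = 0.0210) and -0.71 (SE 0.15, limma adjusted p = 0.0489). St6galnac6 lay at -0.64 to -0.09 in the high and 0.05 to 0.37 in the low class, apart, whereas in St8sia4 the low Ctrl NR mouse 108 fell among the high arrays at -0.51. Ap2m1, a clathrin adaptor subunit, differed by -0.52 (limma adjusted p = 0.0416), the plexin-domain gene Plxdc2 by -0.47 (limma adjusted p = 0.0310), and Cab39, a partner of the kinase LKB1, by -0.39 (limma adjusted p = 0.0430).

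The leptin receptor gene lay opposite to Lep. Lepr was at -0.59 to 0.18 (median 0.03) in the high class and at 0.23 to 1.12 (median 0.41) in the low class, with no overlap. The difference of -0.49 (SE 0.13) did not pass, at a limma adjusted p of 0.0916, and both classes held an array far from its others, Ctrl NR mouse 117 at -0.59 and Ctrl NR mouse 64 at 1.12. Of 15 genes of the leptin receptor and its signalling, 10 lay below 0, and 5, or 33.3%, were lower at an unadjusted p under 0.05, against 8.35% of all features. Their median was -0.12 and stayed below 0 in all 26 other settings. Socs3, which shuts off the receptor's signal and was named after its value was seen, was at -0.37 (limma adjusted p = 0.227).

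Other hormones of the fat cell did not pass with Lep. Retn, which encodes resistin, was at 1.10 (SE 0.24, limma adjusted p = 0.0628). It was at -0.09 to 0.89 in 7 high arrays and -1.58 to 0.19 in 7 low arrays, and a further probe gave 0.81 (unadjusted p = 0.00487). Adipoq, which encodes adiponectin, was at 0.49 (95% interval 0.03 to 0.94, limma adjusted p = 0.271) in 6 high and 8 low arrays. Of 21 adipokine genes 14 lay above 0, with a median of 0.13. Among genes read as marks of fat pad expansion, Mest, Npr3, Sfrp5 and Cav1 were at 0.15, 0.47, 0.13 and 0.06. Npr3, the clearance receptor for natriuretic peptides, had the lowest limma adjusted p of these, 0.0831, and no other was under 0.6.

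Markers shared by all fat cells did not pass the test. Pparg and Cebpa, the factors that make a fat cell, were at 0.20 (limma adjusted p = 0.434) and 0.32 (limma adjusted p = 0.255), and Plin1, which coats the lipid droplet, at 0.30 (limma adjusted p = 0.391). Lipe and Pnpla2, the lipases that break triglyceride down, were at 0.18 and 0.19, Adrb3, the receptor that triggers them, at 0.44, and the insulin-responsive glucose carrier Slc2a4 at 0.46, none with a limma adjusted p under 0.4. A further probe of Adrb3 gave 0.61 (limma unadjusted p = 0.0467). Vegfa, a vessel growth factor, was at 0.20, and a further probe of it at -0.04. Adipocyte markers were well above background on all 24 arrays. Among markers of other cells, those of B cells (Cd79a) and epididymis (Lcn5) were above background on none, the epididymal Crisp1 was on 1 array, and the sperm gene Prm1 on 15, with a difference of 0.69 (unadjusted p = 0.484). The T cell marker Cd3e was at -0.41 (limma unadjusted p = 0.0052). The list of T, B and NK lymphocyte genes did not lean with it. Of its 18 measured genes 9 lay above and 9 below 0, with a median of -0.003. The sign of that median turned in 9 of 26 other settings. Cd9, a marker of lipid-laden macrophages, was at -0.74 (limma unadjusted p = 0.036). Of the endothelial markers, Pecam1 was at 0.26 (limma unadjusted p = 0.022), while Cdh5 and Kdr were both at -0.09.

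Macrophage genes leaned lower in the high Lep class but overlapped. Of 29 measured macrophage genes 25 lay below 0, with a median of -0.39, 0 were called, and 2 were lower at an unadjusted p under 0.05 (6.90%, against 8.35% of all features). The mean of these genes ran from -1.18 to 0.37 (median -0.55) in the high arrays and from -1.18 to 0.53 (median 0.03) in the low arrays, so the ranges of the classes overlapped almost wholly. Adgre1 (F4/80) was at -0.73, Itgax (CD11c) at -0.85 and Trem2, a receptor of lipid-laden macrophages, at -1.20 with a 95% interval from -2.51 to 0.12, none with a limma adjusted p under 0.3. In bulk tissue, fewer cells of a type and less RNA per cell cannot be told apart. When arrays were ranked by median-centred Lep the macrophage median turned to 0.39, and with the macrophage mean and the unnamed probe as joint terms to 0.01. The macrophage mean is taken over these same genes. A joint-term value near 0 was therefore set by the fit and says nothing about macrophages.

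The matrix, cell cycle and cytosolic ribosomal protein lists had medians below 0. Of 34 collagen and matrix genes 26 lay below 0, and the median was -0.22. At an unadjusted p under 0.05, 13 (38.2%) were lower, against 8.35% of all features. Col1a1, a chain of type I collagen, was at -0.78 (limma adjusted p = 0.111) and Timp2, an inhibitor of matrix proteases, at -0.53 (limma adjusted p = 0.0580), both named after their values were seen. A further probe of Timp2 gave -0.17 (unadjusted p = 0.472). Of 26 cell cycle genes 25 lay below 0, with a median of -0.34, and Mki67, carried by dividing cells, was at -0.65 (limma adjusted p = 0.327). Of 39 cytosolic ribosomal protein genes 30 lay below 0, with a median of -0.13, and Rpl32 was at -0.32 (limma adjusted p = 0.0882). The matrix and cell cycle medians turned above 0 with arrays ranked by median-centred Lep, and that of the cell cycle also with the macrophage mean and the unnamed probe as joint terms, whereas the ribosomal median was below 0 in all 26 settings.

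**Figure D5:**
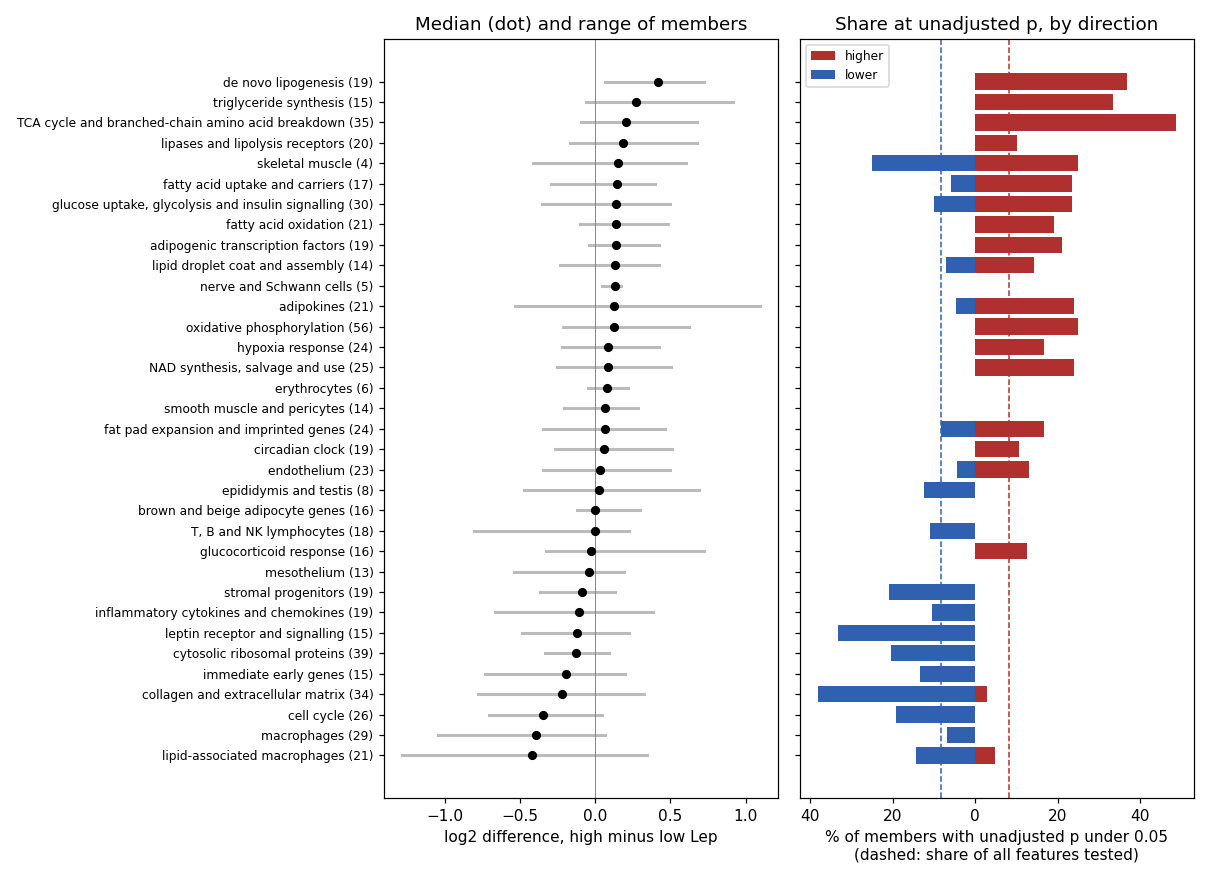
For each of 34 gene lists (number measured in brackets), the left panel gives the median (dot) and range (grey line) of its members' log2 difference, high minus low Lep, and the right panel the percent of members higher (red) or lower (blue) at an unadjusted limma p under 0.05. Dashed lines mark the shares over all features, 8.2% and 8.35%; the TCA cycle and branched-chain amino acid list reaches 48.6% and the matrix list 38.2%.

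Over all 24 arrays, after each diet's mean was removed, the genes that followed Lep most closely were Tfrc, the transferrin receptor (Pearson r = 0.94), Idh3b (0.87), Sacm1l, a phosphoinositide phosphatase (0.85), Supv3l1 (0.85) and Pcca (0.84). Those that opposed it most included Erf (-0.85), Krtap19-5, a keratin-associated protein gene of a large family (-0.82), Dact3, a Wnt antagonist (-0.81), and Papola, a poly(A) polymerase (-0.79). These points share arrays with the comparison and are given as a description. Between the classes, Tfrc was at 0.36 (limma adjusted p = 0.0489) and a further probe of it at -0.18 (unadjusted p = 0.172). Sacm1l, Krtap19-5, Dact3 and Papola were at 0.55, -0.42, -0.44 and -0.51, with limma adjusted p-values from 0.0563 to 0.107.

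The 8 middle arrays, whose Lep ratio spans 0.08 to 0.25, took no part in choosing the calls. In them 29 of the 56 higher features had a positive slope on Lep and 15 of the 23 lower features a negative one, or 55.7% of the 79 together, while 44.0% of all features had a positive slope. With limma 0 features passed there and 346 had an unadjusted p under 0.05. Of these arrays 7 were No NR mice and 1 was Ctrl NR, so the slope was read almost within 1 diet and over a narrow range of Lep.

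The effect of Lep class was compared between the diets through an interaction term. With limma 0 features passed, 1263 had an unadjusted p under 0.05, the smallest adjusted p was 0.733, and 9 features, F10 among them, had no estimate. Of the 79 called features 11 had an unadjusted p under 0.05 in this fit, against 1263 of all 21050. Among these 11 were Slc25a20 (limma unadjusted p = 0.0092) and Nnmt (limma unadjusted p = 0.010). The 79 called features had the same sign within the Ctrl NR arrays in 79 cases and within the No NR arrays in 78. They were chosen on these same arrays, so this agreement was largely set by the choice. It does not show that the effect was alike in both diets. Neither diet alone gave a call, with 5 against 6 mice in Ctrl NR and 3 against 2 in No NR.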

How the data were processed

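RNA of epididymal fat from 24 mice was hybridised to 2-colour Agilent arrays, 1 array per mouse. The deposited scanner files hold median spot and background intensity of Cy5 and Cy3, per the file headers from Agilent Feature Extraction 10.7.3.1. They also hold processed signals, which the authors deposited as intensity after the scanner software's background subtraction and dye normalisation. The authors' deposited value table holds 1 log2 Cy5 value per feature and array, whose normalisation is not given in the sources used here. Its medians per array lie near 8.04, its values follow each array's own Cy5 (r at least 0.990), and it stands in for the ratio as an alternative only.

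Intensities were background-corrected with normexp (offset 50) and loess-normalised within arrays in limma 3.58.1 (R 4.3.3). Control spots had weight 0 in the loess and outlier spots were dropped. Spots of a probe were averaged. Probes well above background in Cy5 on at least 6 arrays of a diet were kept (24769 of 55681), and each gene was read by its brightest kept probe. Genes were named through RefSeq accessions (27235 probes have 1 symbol, 28446 none). Classes of 8 arrays were compared with lmFit and eBayes, diet as a covariate, and Benjamini-Hochberg adjustment over 21050 features at 0.05. The labels name separate mice, and no 2 arrays held identical values. Differences are on the log2 scale.

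Named genes were the 12 or fewer per direction with the largest called difference (clone and predicted names and genes with conflicting probes left out), the 2 lowest p of each list with a call, a fixed set of 21 measured genes (Cd68 was not measured), and the 5 per direction that followed or opposed Lep most, of which 1 is not reported here. Others are said to have been named after their values were seen. The arrays and lists were chosen with earlier results of these data known. The alternatives are given in the closing section; those without the slide 1 arrays, and with the macrophage mean and the unnamed probe both as terms, were chosen after seeing the data. Precision is set by how many arrays there are, and the median SE was 0.10.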

Additional observations from a re-analysis of the deposited data

Results flagged for a closer look

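In 14 of 146 sets of ratios, each 1 gene in 1 Lep class, an array stood apart from the others by more than Dixon's 95% limit, which chance passes in about 1 in 20. Ctrl NR mouse 64, the array with the least Lep, was the one apart in 6 of them, at -1.62 for Lpin1, 1.12 for Lepr, 0.89 for Krtap19-5, 1.22 for Papola, -0.91 for Mtor and -0.75 for Nampt, each on the side opposite to the high Lep class. In the low class, Sox4 was 0.86 in Ctrl NR mouse 88, Nnmt -0.97 in No NR mouse 101, St8sia4 -0.51 in Ctrl NR mouse 108 and Fasn 0.33 in Ctrl NR mouse 75. In the high class, Lepr was -0.59 and Tcof1 -0.81 in Ctrl NR mouse 117, Plxdc2 -0.84 in Ctrl NR mouse 77 and Mest -0.76 in Ctrl NR mouse 115.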

How the results depend on the processing

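No paired analysis was possible because the diets share no animal numbers. Against 56 features higher and 23 lower, the counts were 0 and 0 with slide as a fixed block, 1 and 0 with probe A_55_P2138100 as a term, 0 and 0 with that probe and the macrophage mean both as terms, and 0 and 0 with median centring or within either diet alone. They were 97 and 39 without the diet term, 199 and 155 with the macrophage mean as a term, 365 and 268 with array weights, 16 and 0 with Cy5 values after Aquantile, 67 and 8 with the processed signals and 35 and 4 with the value table, so the share of calls that were higher also moved with the scaling. By choice of arrays they were 124 and 85 for 6 against 6, 147 and 157 for 12 against 12 (2 features differing between diets), 617 and 664 with Lep as a continuous term, 272 and 320 for 4 against 4 within each diet (47 differing), 181 and 108 ranked by the value table (6 differing), and 116 and 42 ranked by median-centred Lep (1 differing, with 5 and 2 features shared with those reported). Without the arrays of slide 1 more features were called, 49 of them lower, with 41 and 14 shared with those reported. Leaving out 1 array gave 0 to 135 higher, 0 to 85 lower and 0 to 3 differing between diets. The other alternatives (slide as a random block, share of spots above background, intensity trend, no background subtraction, no filter on dim probes, all arrays above background, mean of probes) stayed within 1.5 times the counts reported. The share of called features whose middle slope had the same sign ran from 48.0% to 59.0% over the alternatives. Another Lep probe could not be tried, since the array has 1.

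Among called genes named here, Samd1 alone changed sign, to 0.0041 when ranked by median-centred Lep. Others turned as follows. With the macrophage mean: Cav1 -0.12, Adrb3 -0.075, Pnpla2 -0.055, Ucp1 0.087 and Adgre1 0.034. That mean is taken over macrophage genes, so a macrophage gene such as Adgre1 is drawn towards 0 by the fit itself. With the probe: Sfrp5 -0.042. With both: Sfrp5 -0.23, Cav1 -0.60, Pparg -0.053, Adrb3 -0.42, Lipe -0.074 and Ucp1 0.28. Ucp1 was 0.073 with median centring, 0.011 with Aquantile, 0.020 without background subtraction, 0.075 with processed signals and 0.023 with the value table. For 6 against 6: Cav1 -0.047, Pnpla2 -0.14, Ucp1 0.030 and Adgre1 0.012. For 12 against 12: Cav1 -0.076 and Ucp1 0.14. With continuous Lep: Cav1 -0.089 and Ucp1 0.067. For 4 against 4: Cav1 -0.083 and Pnpla2 -0.020. Ranked by the value table: Pnpla2 -0.023. Within Ctrl NR: Cav1 -0.0077 and Ucp1 0.091. Ranked by median-centred Lep: Per1 -0.095, Sfrp5 -0.051, Cav1 -0.12, Adipoq -0.28, Retn -0.28, Pparg -0.18, Cebpa -0.14, Slc2a4 -0.42, Adrb3 -0.70, Lipe -0.085, Pnpla2 -0.55, Plin1 -0.33, Fasn -0.12, Scd1 -0.31, Vegfa -0.12, Adgre1 0.93, Itgax 0.66, Trem2 1.01, Col1a1 0.26 and Mki67 0.46. With 1 array or slide 1 left out, Ucp1 ran from -0.15 to 0.070 and Cav1 from -0.028 to 0.23. The causes were not tested. The number of arrays and the closeness of the Lep ratios at the class edges limit what can be told apart.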
